A study of Caenorhabditis elegans with 4 samples.

Results

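The regions described here are those of chromosome X in the combined peak list of a chromatin immunoprecipitation sequencing (ChIP-seq) experiment labelled NHR-129 in Caenorhabditis elegans. They were chosen by position alone, as the lines of that list whose chromosome is X. There were 1192 such regions among 11110 in the whole list, or 10.7%. Both replicate peak lists were used as support, with 753 peaks of replicate 1 and 679 peaks of replicate 2 on X. All positions are those of WormBase WS220.

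The worms were L2 hermaphrodites of strain OP339, grown at 20 °C, all mutant for unc119(ed3) and all carrying the transgene wgIs339. This transgene, brought in by bombardment, holds a copy of unc119 beside nhr-129 joined to the tags TY1, EGFP and FLAG, and every sample had both the mutation and the transgene. The study had 2 ChIP samples, precipitated with antibodies against the tag, and 2 Input samples of total chromatin, and no strain without the tag was among them. Whole animals of a single strain, listed with no outcross, were used, and the tagged protein is described by the labels in seam cells, pharynx and head neurons, so a bound region cannot be assigned to 1 of these cell types. The labels do not say whether replicates 1 and 2 came from separate cultures, so the spread between them may be technical. Every one of the 2624 peak lines of X was named GEI-11, which is the name of another protein, as were all 25802 lines of the 3 lists. The lists are therefore called those of the ChIP labelled NHR-129. They give a position and a q-value for each peak and no read counts, so the depth is unknown. Counts of peaks can also rise with depth. The q-values serve here to order and class peaks inside each list.

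Nuclear hormone receptors are transcription factors that join a zinc-finger domain, which contacts DNA, to a domain that can hold a small lipophilic ligand. The family is greatly expanded in nematodes, and many of its members have no known ligand. The X chromosome of C. elegans differs from the autosomes in several known ways. Hermaphrodites carry a pair of X chromosomes and males a single one, a dosage compensation complex lowers transcription from both X chromosomes of hermaphrodites in somatic cells, and genes used in the germ line are scarce on X. Autosomes have gene-dense centres and arms with more recombination, while X is more even along its length. Genes are not assigned to regions below, since a WS220 annotation was not used here.

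X carried many regions of moderate width, and the strong ones were found in both replicates. Of the 1192 X regions, 584 were overlapped by at least 1 bp by peaks of both replicate lists, or 49.0% (95% Wilson interval 46.2 to 51.8%, counting error only). Over the whole combined list the share was 48.5%, so this count on X lay near the background. The shares were 49.7% on II (46.7 to 52.6%), 50.5% on IV below 12 Mb (47.2 to 53.8%) and 54.9% on III (52.0 to 57.9%). X was the lowest of the 4, and its interval lay below that of III and overlapped the others. A further 153 X regions (12.8%) were overlapped by replicate 1 alone, against 14.8% over the whole list, and 70 (5.87%) by replicate 2 alone, against 9.75%. The other 385 X regions (32.3%, 29.7 to 35.0%) were overlapped by neither, against 26.9% over the whole list. The share with support from neither was 29.8% on II, 30.2% on III and 29.9% on the part of IV below 12 Mb, and the intervals of these shares overlapped that of X. The 584 X regions found in both replicates are called the replicated set of X. By its name the combined list draws on the same ChIP samples as the replicate lists, though its making is not described. Overlap with those lists is therefore not independent support, and strong combined regions can be expected to have it.

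Support depended on the strength of a region. The replicated set of X had a median width of 652 bp, and its median -log10 q-value was 16.9. For X regions without any replicate peak the width was 405 bp and the -log10 q-value 2.80 at the median. All 244 X regions with a -log10 q-value above 20 were overlapped by both replicates, where the share over the whole list was 99.7%. Between 10 and 20 it was 214 of 218 on X (98.2%), against 86.5% over the whole list. Between 2 and 5, 3 of 463 were (0.648%, 0.221 to 1.89%), against 0.94% over the whole list. The strongest X region without support from both replicates, 16932293 to 16932668, ranked 3906 in the combined list and was found by replicate 2. The strongest with support from neither, 5354189 to 5355793, was 1605 bp wide and ranked 5635.

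Between -log10 q-values of 5 and 10, fewer X regions were supported by both replicates than in the compared parts. On X, 123 of 267 were supported, or 46.1% (95% Wilson interval 40.2 to 52.1%). The shares were 58.1% on II (52.1 to 63.9%), 64.7% on III (58.5 to 70.5%) and 64.0% on IV below 12 Mb (56.9 to 70.5%), and 32.1% over the whole list. The interval of X met that of II at its edge and lay below those of III and IV. No test was made of this or of any other difference between chromosomes: the study has a single group of 2 ChIP samples, and neighbouring regions of the same samples are not replicates. Differences are given below by whether they stood in each replicate list and exceeded the spread between the lists.

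**Figure D1:**
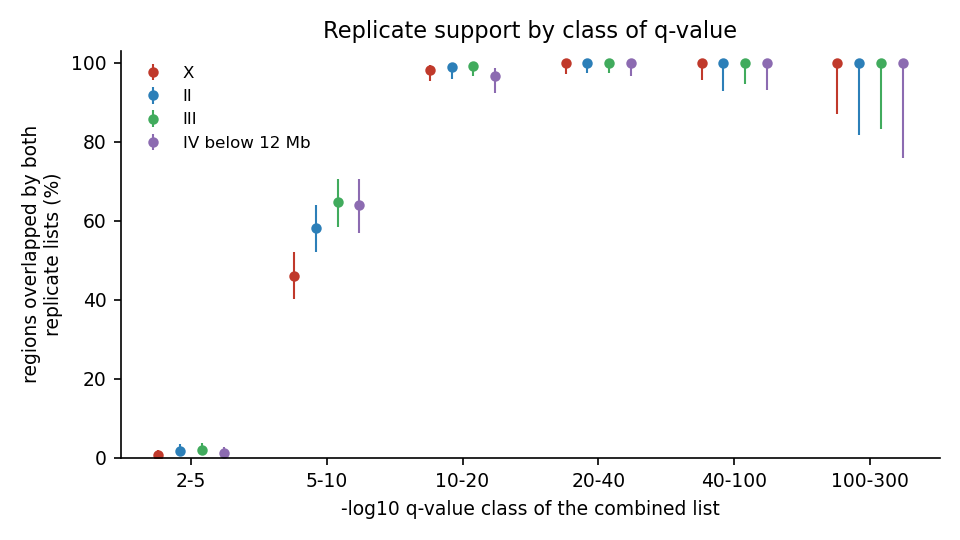
Share of combined regions overlapped by peaks of both replicate lists, in 6 classes of the combined -log10 q-value, for X, II, III and IV below 12 Mb; points are shares and bars are 95% Wilson intervals. In the class from 5 to 10 the X point (46.1%) lies below the others (58.1 to 64.7%), and above 20 all points stand at 100%.

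Seen from the replicate lists, most X peaks were shared. The rate on X was close to those of II and IV below 12 Mb in replicate 1 and below that of III, and in replicate 2 it was the highest of the 4. Of the 753 replicate 1 peaks on X, 597 overlapped a replicate 2 peak, or 79.3% (76.2 to 82.0%), against 71.7% over all replicate 1 peaks. On II, III and IV below 12 Mb the shares were 80.7%, 87.6% and 79.9%. Of the 679 replicate 2 peaks on X, 606 overlapped a replicate 1 peak, or 89.2% (86.7 to 91.4%), against 77.6% over all replicate 2 peaks. The compared parts had 83.5%, 87.7% and 87.5%. The 156 X peaks of replicate 1 without a partner were weak, with a median at the 86.2 percentile of their list (counted from the strongest peak), and the 73 of replicate 2 lay at the 90.6 percentile. No unpartnered X peak of either list was among the strongest 10% of its list.

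Where both replicates found a peak on X, its edges nearly coincided, as they did in the compared parts. In 578 pairs of 1 peak each, the starts differed by a median of 26 bp and the ends by a median of 27 bp. Both edges lay within 100 bp in 425 pairs (73.5%), against 72.8% on II, 74.0% on III and 75.5% on IV below 12 Mb. Replicate 1 gave the wider peak in 376 pairs (65.1%, against 63.4 to 66.2% in the compared parts). It gave the smaller q-value in 373 (64.5%, against 56.9% on II, 58.6% on III and 64.1% on IV below 12 Mb). The q-values of the pairs ranked alike (Spearman's rho 0.90 on X, 0.866 on II, 0.849 on III and 0.863 on IV below 12 Mb). These are descriptions across peaks of the same libraries. Of all X bases in a peak of either replicate, 68.3% lay in peaks of both, against 65.8% on II, 71.8% on III and 66.7% on IV below 12 Mb. In the replicated set of X, 562 of 584 regions held exactly 1 peak of each list. The other 22 held several peaks of a list, up to 2 of replicate 1 and up to 4 of replicate 2.

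**Figure D2:**
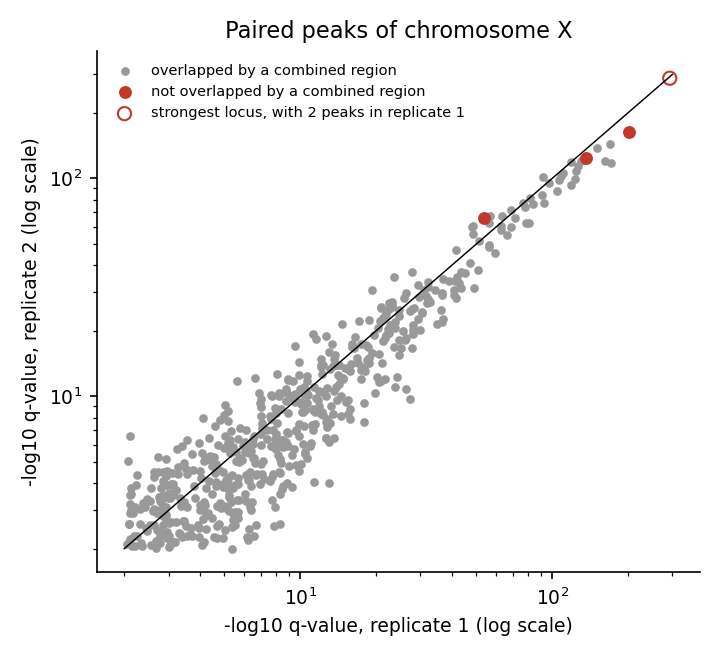
The -log10 q-values of 578 paired X peaks in replicate 1 and replicate 2, both axes on a log scale, with the line of equal values. Red points, among the strongest of X, were not overlapped by a combined region, and the open circle marks the strongest X locus, which replicate 1 split into 2 peaks.

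X regions were wider at the median than those of the compared parts, in every list. In the combined list the median width on X was 518 bp (interquartile range 383.75 to 784.75 bp), against 463 bp on II, 460 bp on III and 469 bp on IV below 12 Mb. In replicate 1 the X median was 547 bp and in replicate 2 it was 532 bp, a mean of 539.5 ± 10.6 bp (SD, n = 2). The means of the same medians were 455 ± 11.3 bp on II, 469 ± 9.9 bp on III and 473.2 ± 13.8 bp on IV below 12 Mb (SD, n = 2 each). The X value exceeded each of them by several times the spread between the replicate lists. Regions of 500 bp or more made up 638 of the 1192 X regions, or 53.5%, against 31% over the whole list and 44.3 to 44.9% in the compared parts. In replicate 1, 55.8% of X peaks were that wide, against 30.4% of all its peaks, and in replicate 2 it was 54.8% against 28.8%. The whole-list values also hold chromosomes I and V and the rest of IV, which were not compared with X here.

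Narrow regions were rare on X. In the combined list 18 X regions (1.51%) were under 100 bp, against 3.32% on II, 2.67% on III, 3.81% on IV below 12 Mb and 14.1% over the whole list. On X 4 regions (0.336%) were 10 bp or shorter, against 0.46 to 0.923% in the compared parts and 3.06% over the whole list. The shortest was 1 bp at 6813330. In replicate 1, 2 X peaks (0.266%) were under 100 bp, against 1.16% on II, 0.433% on III, 0.178% on IV below 12 Mb and 13.5% over the whole list. IV below 12 Mb thus had the smaller share there. In replicate 2 it was 1 X peak (0.147%), against 0.958 to 1.35% in the compared parts and 14.7% over the whole list. At the other end, 79 X regions (6.63%) were 1500 bp or wider, within the range of the compared parts (6.18 to 7.08%). In replicate 1 the share on X was 8.10%, below III (8.37%) and above II (5.67%) and IV below 12 Mb (6.75%). In replicate 2 X had 6.77% and the others 5.25 to 5.94%, and in the replicated set X had 12.7% and the others 11.6 to 12.4%. X thus had the largest share of very wide regions in replicate 2 and the replicated set, and not in the combined list or replicate 1.

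Against the compared parts, X was wider in the weakest class of q-value and narrower in the strongest. For -log10 q-values from 2 to 5, the median width on X was 398 bp in the combined list, while II, III and IV below 12 Mb had 336, 343 and 349 bp. The same class gave 437.5 bp on X in replicate 1 against 368.5 to 383 bp, and 449.5 bp in replicate 2 against 369 to 386.5 bp. From 20 to 40 the combined medians were alike, 692.5 bp on X and 682.5 to 707 bp elsewhere. In the replicate lists the medians of this class were more spread, with X inside the range of the others. Replicate 1 had 823.5 bp on X against 738 to 1018 bp, and replicate 2 had 765 bp against 683 to 882.5 bp. Above 100, the 26 X regions had a median of 1796 bp, against 2728 bp for 17 regions on II, 3204 bp for 19 on III and 2769.5 bp for 12 on IV below 12 Mb. In the same class of replicate 1, 17 X peaks had a median of 1090 bp and the 9, 4 and 3 peaks of II, III and IV below 12 Mb had medians of 2635, 3953 and 4304 bp. In replicate 2, 14 X peaks had a median of 1122 bp, and the 6, 3 and 2 peaks of the others had 2823.5, 5145 and 3495.5 bp. Some of these groups hold very few peaks. Over all chromosomes the median in this class was 1685 bp in the combined list, below that of X, and 1878 bp in replicate 1 and 2153.5 bp in replicate 2, above those of X.

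**Figure D3:**
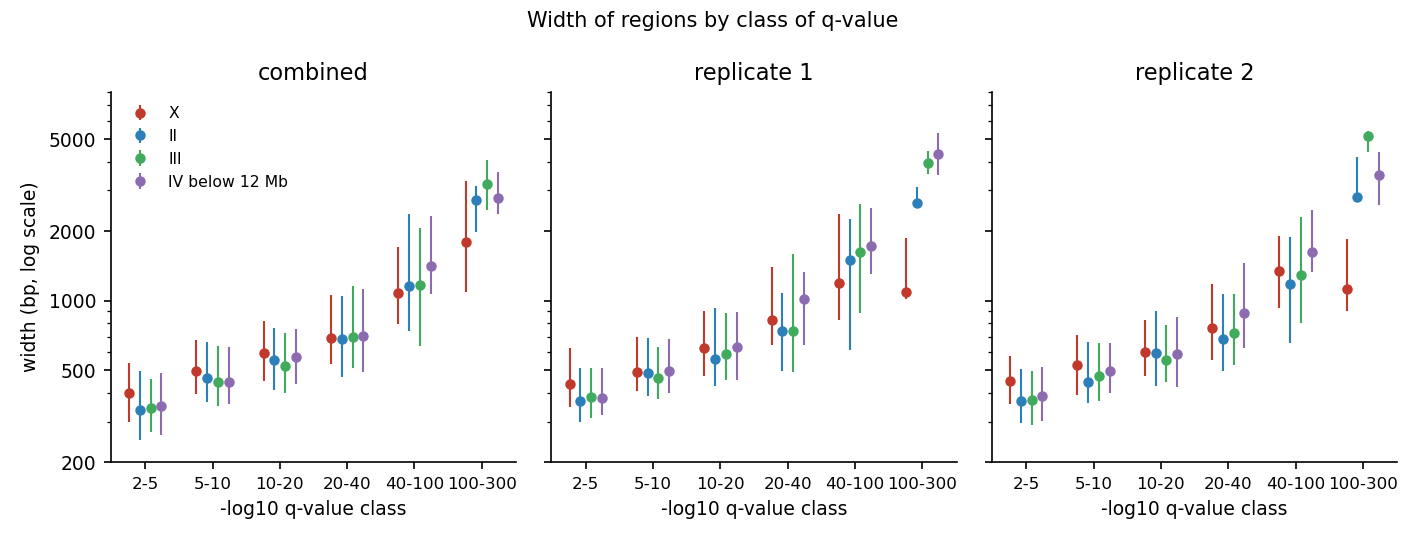
Median width (points, log scale) and interquartile range (bars) in 6 classes of -log10 q-value for X, II, III and IV below 12 Mb, in the combined list and in each replicate list. X lies above the others in the weakest class (398 bp against 336 to 349 bp in the combined list) and below them in the strongest (1796 bp against 2728 to 3204 bp).

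Strong peaks made up a larger share of X than of the compared parts. In the combined list 110 X regions were among the strongest 10% by q-value, or 9.23% of X (95% Wilson interval 7.71 to 11.0%), where the background is 10% by construction. The shares were 6.18% on II, 7.91% on III and 7.38% on IV below 12 Mb. In replicate 1, 85 X peaks (11.3%) were in the strongest 10% of the list, and in replicate 2 it was 83 (12.2%), against list-wide shares of 10% and 9.99%. The mean over both replicate lists was 11.8 ± 0.662% on X, 9.35 ± 0.444% on III, 7.38 ± 0.395% on IV below 12 Mb and 6.58 ± 0.666% on II (SD, n = 2 each). In the strongest 1% of replicate 1 X held 13 peaks, or 1.73% of its peaks, against 0.989% over the whole list and 0.355 to 0.577% in the compared parts. In replicate 2 it held 14, or 2.06%, against 0.999% over the whole list and 0.383 to 0.75% in the compared parts. In the combined list it held 10, or 0.839%, which lay below the 0.999% of the whole list and above the compared parts (0.552 to 0.692%). At the median the order depended on the list. The median X region stood at the 56.3 percentile of the combined list, between III (52.3) and IV below 12 Mb (58.9). Medians over the replicate lists averaged 49.1 ± 2.11 on X and 49.9 ± 0.0675 on III (SD, n = 2), a difference within the spread of X. Ranked within the replicated set, the median X region stood at the 53.3 percentile and thus ahead of IV below 12 Mb (56.5), III (58.4) and II (58.5). That set is filtered by support, and weak X regions passed the filter less often. For -log10 q-values from 5 to 10 the share was 46.1% on X against 58.1 to 64.7% in the compared parts. The order within the set therefore also reflects the filter, and its part in it was not tested.

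Both replicates overlapped each of the 10 strongest X regions of the combined list. First came 6250080 to 6256114, a region of 6035 bp with rank 2 in the combined list (q-value 1.42e-292), rank 25 in replicate 1 (2.15e-170) and rank 23 in replicate 2 (3.46e-145). Its replicate peaks were 5985 and 6011 bp wide, so its edges were found alike by both. Next was 3114261 to 3117627 with rank 17 (2.77e-257), and replicate ranks 24 and 49. The third, 4007371 to 4009362, had rank 48 (1.43e-196) and replicate ranks 28 and 45. These 3 led in the combined list and kept ranks within the first 50 of each replicate list.

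The fourth X region, 6748914 to 6750626 (combined rank 61), had replicate ranks 64 and 89. It lies close to the strongest locus of both replicate lists, described below. Compact strong regions came next to broad ones. Of the compact kind, 8035894 to 8036979 was 1086 bp wide, with a combined rank of 83 and replicate ranks of 36 and 30. Likewise 2996388 to 2997508 was 1121 bp wide, with a combined rank of 93 and replicate ranks of 54 and 50. Both ranked better in the replicate lists than in the combined list. The region 5212703 to 5214581 (1879 bp) had a combined rank of 94 and replicate ranks of 91 and 104.

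The following broad regions ranked better in the combined list than in the replicates, or were split there. They were named for their q-value or width in the combined list, so a good combined rank was partly set by that choice. Broad loci absent from the combined list, described below, ranked high in both replicates. Width and rank were not compared over all X regions. The widest X region, 8016641 to 8023412 (6772 bp), had a combined rank of 62 (q-value 5.49e-184). Replicate 1 covered it with 2 peaks, the stronger of rank 201, and replicate 2 with 4 peaks, the strongest of rank 546. The region 12662119 to 12667290 (5172 bp) had a combined rank of 72 and replicate ranks of 168 and 143. At 11603178 to 11608602 (5425 bp) the combined rank was 138 and the replicate ranks were 339 and 211. The region 11471078 to 11475898 (4821 bp) stood at rank 312 in the combined list and at 626 and 637 in the replicates, where its widths were 4750 and 4781 bp. The last of the 10 strongest, 7951263 to 7955052 (3790 bp, rank 98), was found as 1 peak in replicate 1 (rank 109) and as 2 in replicate 2 (best rank 96). Lists of different lengths give different ranks, so these ranks describe each list and show no change between them.

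The strongest X peak of both replicate lists was not overlapped by any combined region. Replicate 2 held it as 1 peak from 6735314 to 6745985, 10672 bp wide, with a q-value of 4.81e-289 and rank 1. Replicate 1 held 2 peaks there, 6740409 to 6745909 with rank 1 (9.72e-294) and 6735344 to 6740138 with rank 179 (2.9e-76). The nearest combined regions lay 5390 bp to the left and 515 bp to the right, the latter at 6746501 to 6747389 with rank 6179.

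At 2 further places X peaks of both replicates were missing from the combined list. The locus 1503352 to 1505226 (1875 bp) had rank 18 in replicate 1 (q-value 1.96e-203) and rank 19 in replicate 2 (1.66e-164). A combined region of rank 3420 ended 286 bp to its left. The locus 4141916 to 4148287 (6372 bp) was made of 2 peaks in each list, with best ranks of 45 and 40. Combined regions of rank 1525 and 10348 lay 355 bp and 371 bp from its ends. Replicate peaks merged within 200 bp made 588 X loci with peaks of both lists, of which these 3 were absent from the combined list (0.51%, against 0.545% over all 5500 loci). II, III and IV below 12 Mb had 0 absent loci among 548, 599 and 445. By the summed -log10 q-value of the strongest peak in each replicate, the 3 absent loci stood first, second and seventh on X (581.3, 366.5 and 260.2). The largest sum was 323.0 on II, 300.9 on III and 243.3 on IV below 12 Mb. Those parts thus held no locus as strong as the first 2, and for these their counts of 0 are no like comparison. II and III did hold a locus with a larger sum than the third absent one (260.2). No replicate peak of the 3 absent X loci was overlapped by a combined region. With merging within 1000 bp each locus became part of a longer one that a combined region overlapped, so that the count of absent X loci was then 0.

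Nearly every other replicate peak of X was covered by the combined list, 747 of 753 in replicate 1 (99.2%) and 675 of 679 in replicate 2 (99.4%), against 95.8% and 95.3% over all chromosomes. Besides the peaks of these loci, only 1 uncovered peak remained, of 6 bp at 1409183 to 1409188 in replicate 1 (q-value 0.00313). No X peak of replicate 2 was found by that list alone.

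Along its length X was covered evenly. Density was counted by region midpoints in 18 bins of 1 Mb, with the end bins scaled to the span from the first to the last X peak. The replicated set had 33.3 ± 6.67 regions per Mb (SD over 18 bins, which are not replicates), with a lowest bin of 18.1, a median of 34.5 and a highest of 47 per Mb. The lowest was the first bin at the left end and the highest the bin from 13 to 14 Mb. The same bins were lowest and highest in each deposited list: replicate 1 had 24.9 and 60 per Mb there, replicate 2 had 21.5 and 55, and the combined list had 45.3 and 101. A shallow low stretch from 9 to 12 Mb had 26 to 28 replicated regions per Mb, and the bin from 5 to 6 Mb also had 28. In replicate 2 the bin from 5 to 6 Mb (32 per Mb) lay below that from 11 to 12 Mb (35), so the stretch did not stand apart.

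**Figure D4:**
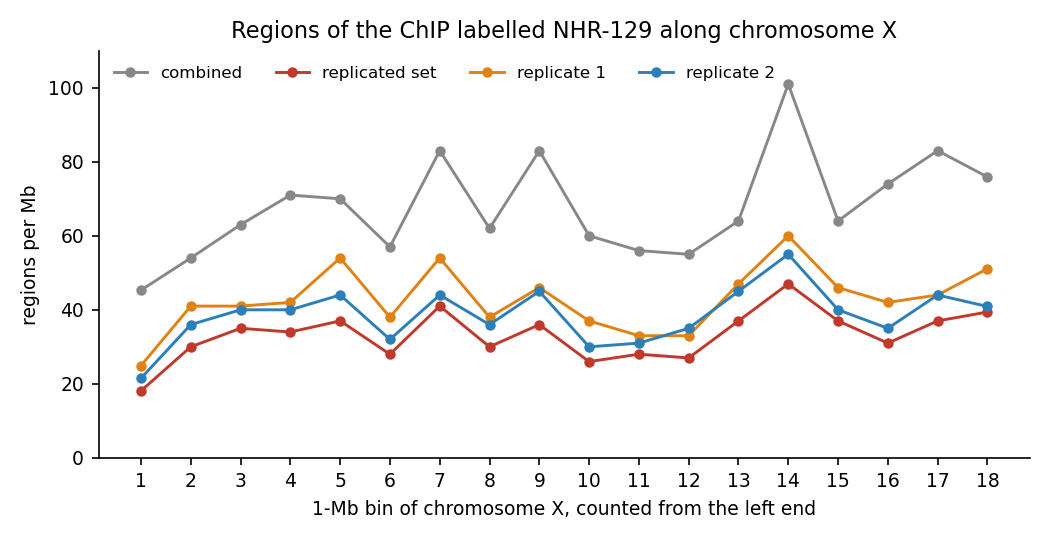
Regions per Mb in 18 bins of chromosome X, counted from the left end, for the combined list, the replicated set and each replicate list. All 4 lines have their lowest value in bin 1 (18.1 per Mb in the replicated set) and their highest in bin 14 (47 per Mb).

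The middle of X was no denser than its outer parts, while the middle of II and III was. With the span divided into 3 equal parts, replicated regions numbered 31.3 ± 5.92 per Mb in the middle of X (SD over 6 bins). The rest of X had 34.2 ± 7.06 per Mb (SD over 12 bins), which makes a ratio of 0.916. In the replicate lists the ratio was 0.908 and 0.934 on X, 1.97 and 1.69 on II, and 1.80 and 1.66 on III. The mean ratio was 0.921 ± 0.0184 on X, 1.83 ± 0.195 on II and 1.73 ± 0.103 on III (SD, n = 2 each). IV below 12 Mb is a piece of a chromosome, so its middle is not the middle of IV. Divided in the same way, it had ratios of 0.997 in replicate 1 and 1.09 in replicate 2 (mean 1.04 ± 0.0669, SD, n = 2). The ratio was 0.989 in the combined list and 1.08 in the replicated set. These values lay closer to those of X than to those of II and III. The bins of X also varied less than those of II and III. Their SD was 20.0% of the mean in replicate 1 and 19.4% in replicate 2, against 47.7% and 43.4% on II, 39.0% and 36.7% on III, and 25% and 28% on IV below 12 Mb. In the combined list X (20.1%) and IV below 12 Mb (20.8%) were alike. The left, middle and right parts of X held 352, 395 and 445 combined regions, with 50.9%, 47.1% and 49.2% of them supported by both replicates. Among the strongest 10% of the combined list were 32 of 352, 36 of 395 and 42 of 445, against 9.23% of all X regions. These counts thus rose with the number of regions in each part.

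X had the lowest mean density of the compared parts, by margins that were often within the spread. The replicated set had 35.2 ± 16.5 regions per Mb on II (SD, 15 bins), 43.4 ± 15.1 on III (SD, 14 bins) and 36.6 ± 9.02 on IV below 12 Mb (SD, 12 bins). Over the replicate lists the density of X was 40.7 ± 3.05 peaks per Mb, against 44.1 ± 0.891 on II, 45.4 ± 2.43 on IV below 12 Mb and 50.9 ± 0.804 on III (SD, n = 2 each). The difference from III exceeded the spread between the lists by several times, and those from II and IV were close to it. Among regions of 500 bp or more the order did not hold. X then had 23.8 ± 5.31 per Mb in replicate 1 (SD, 18 bins), the most of the compared parts (19.6 to 23.0). In replicate 2 it had 21.1 ± 4.81, fewer than III (22.2) and more than II (18.5) and IV below 12 Mb (19.8). X regions being wider, the share of the span covered by combined regions was 4.72% on X, 4.55% on II, 5.18% on III and 4.69% on IV below 12 Mb.

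**Figure D5:**
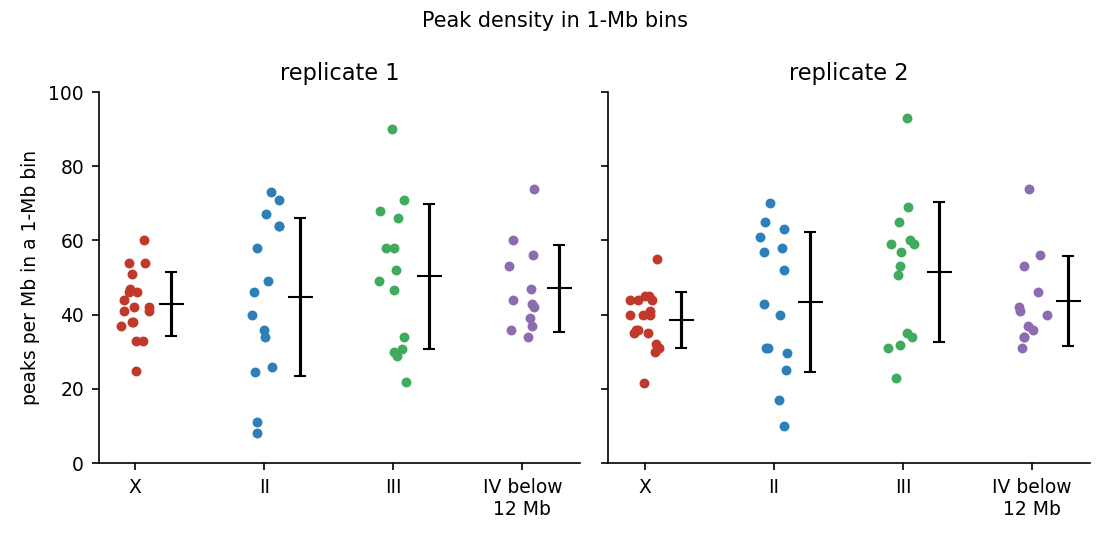
Peaks per Mb in each 1-Mb bin (points) of X, II, III and IV below 12 Mb in replicate 1 and replicate 2, with the mean and SD over bins in black. In replicate 1 the bins run from 24.9 to 60 per Mb on X, 8 to 73 on II, 22 to 90 on III and 34 to 74 on IV below 12 Mb.

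Neighbouring X regions stood farther apart than those of the compared parts. The median gap in the combined list was 7021 bp on X, 5743 bp on II, 6236 bp on III and 6421 bp on IV below 12 Mb. It was 12042.5 and 14444.5 bp in replicates 1 and 2 on X, a mean of 13243.5 ± 1698.5 bp, against 11631 ± 897 bp on IV below 12 Mb, 10223.5 ± 132 bp on II and 9888.8 ± 98.6 bp on III (SD, n = 2 each). The gap of X from IV was within the spread of X between the lists. No gap was shorter than 200 bp in any list, on X or in the compared parts alike. Gaps under 1 kb made up 13.6% of X gaps in the combined list and 18.3 to 19.3% in the compared parts. In the replicate lists they made up 10.8 ± 0.692% on X, 13.6 ± 1.37% on II, 13.9 ± 0.194% on III and 13.6 ± 0.711% on IV below 12 Mb (SD, n = 2 each). In the replicated set, 148 of 584 X regions (25.3%) lay within 2000 bp of another, against 30.1% on II, 33.7% on III and 31.5% on IV below 12 Mb.

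Regions of X without replicate support were also more often isolated. The 385 X regions found in neither replicate lay a median of 8622 bp from the nearest replicated region, against 5193 bp on II, 5981.5 bp on III and 7354 bp on IV below 12 Mb. On X 35 of them (9.09%) were within 1 kb of a replicated region, and in the compared parts the share was 17.1 to 18.1%. The lower density of X bears on this distance as well, and its part in it was not tested.

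A few places of X were crowded. Among 176 windows of 100 kb, the median held 3 replicated regions and 13 windows (7.39%) held 0. The densest, from 13.3 to 13.4 Mb, held 14 replicated regions, with 17 peaks in replicate 1, 14 in replicate 2 and 22 regions in the combined list. Within it, 8 replicated regions followed each other at gaps of at most 2000 bp from 13348277 to 13360274, in 11998 bp. This was the longest such chain of X, and the longest chain of II, III and IV below 12 Mb had 4, 5 and 5 regions. Its strongest region, 13358221 to 13359179 (959 bp), had a q-value of 7.09e-81 and rank 377, so the crowded place held no region from the first ranks of the list.

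The second window, from 6.2 to 6.3 Mb, held 10 replicated regions, among them the leading X region at 6250080 to 6256114, and a chain of 4 from 6201476 to 6208334. The next windows, equal in count, were those from 14.5 to 14.6 Mb and from 17.6 to 17.7 Mb, with 9 each. In the former the strongest region was 14525315 to 14526405 (rank 256), and in the latter, at the right end of the mapped span, 17636088 to 17636888 (rank 1209). A chain of 5 regions from 3106137 to 3117627 ended in the X region with combined rank 17, and another chain of 5 ran from 8155505 to 8160462.

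The longest stretch of X without a replicated region ran from 1627467 to 1856128, over 228662 bp. It held 1 peak of each replicate list and 2 combined regions, with ranks of 6409 in replicate 1, 6896 in replicate 2 and at best 7027 in the combined list. The second ran from 13730872 to 13920306 (189435 bp), in the same 1-Mb bin as the densest window. It held 10 combined regions and 2 peaks in each replicate list. The third, from 17217654 to 17384967 (167314 bp), held 5 combined regions, 2 peaks of replicate 1 and 0 of replicate 2. These stretches were thus not free of peaks, but no combined region in them was supported by both replicates. In the replicated set, 27 of 583 X gaps were over 100 kb. The counts were 22 of 538 on II, 15 of 596 on III and 17 of 437 on IV below 12 Mb. These compared parts are shorter than X. Yet the longest gap of that set was shorter on X (228662 bp) than on any of them. It was 234222 bp on III, 300058 bp on IV below 12 Mb and 425132 bp on II.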

How the data were processed

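The labels describe synchronised worms crosslinked with 2% formaldehyde, sonicated, and precipitated with antibodies against GFP. The authors deposited 3 lists of peaks, called with PeakSeq on WormBase WS220 per the file headers and columns, with a q-value for each peak and all q-values below 0.01. For the aligner, the settings, the control reads and the making of the combined list, the sources used here give nothing. A commented line in the replicate 2 list shows that it had been moved from another build.

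Samples were grouped by title. Peak positions were analysed in Python (version 3.11.15) using pandas (version 2.3.3), NumPy (version 2.4.6) and SciPy (version 1.17.1); figures were drawn in Matplotlib (version 3.10.9). Overlap and density counts were tested on simulated peaks. Overlap meant at least 1 bp. Bins under 0.5 Mb were dropped. No test was planned or made. Depth is unknown, so Wilson intervals cover counting of regions only. Members, compared parts and measures were chosen with earlier results of these data known. Named regions followed a written rule: the 10 smallest q-values, the 5 widest, replicate loci absent from the combined list, strong peaks of a single list (0 found), the 3 longest gaps and the 3 densest windows; others named, including chains and the strongest unsupported regions, were chosen after their values were seen.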

Additional observations from a re-analysis of the deposited data

How the results depend on the processing

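Of 28 alternatives to 7 results, all planned, 6 stayed and 22 moved, mostly because they change the set of regions counted. Staying meant lying within the counting interval for the share with support, and an equal count for the absent loci. For the other results it meant lying within the SD between replicate lists. No paired analysis was possible because no test was made and only the ChIP samples have peak lists. The share of X regions with support from both replicates (49.0%) was 46.1% with at least 50% of the region overlapped, 39.4% with centres within 100 bp and 96.7% in the strongest 50% of the combined list; support by a single replicate ranged from 54.9% to 61.8%. Density of X (33.3 per Mb) was 67.8 over all combined regions, 23.8 for regions of 500 bp or more and 29.7 in the strongest 50%, and from 38.6 to 42.9 in single replicate lists. X was lowest of the compared parts in 5 of 7 settings; it was not for regions of 500 bp or more (II had 21.3) nor in the strongest 50% (29.6 on II). Median width (518 bp) was 652 bp in the replicated set and from 532 to 547 bp in single lists, above II, III and IV below 12 Mb in all 5 settings. The median percentile rank (56.3) was 53.3 in the replicated set (56.5 to 58.5 in the compared parts) and from 47.7 to 50.6 in single lists. The median gap (7021 bp) was 16667 bp in the replicated set and from 12042.5 to 14444.5 bp in single lists, longest on X in all 4 settings. Density in the middle of X relative to its outer parts (0.916) was 0.971 over all combined regions, 0.938 in 0.5-Mb bins and from 0.908 to 0.934 in single lists, below 1 in all 5 settings. The 3 absent X loci became 0 with merging within 1000 bp, since each longer locus was overlapped by a combined region, and remained 3 when a combined region within 200 bp counted as present. Without counts, weak regions cannot be told from regions missed for want of depth.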
